A study of Mus musculus with 6 samples.

Results

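The dyneins, tektins, intraflagellar transport (IFT) proteins and radial spoke proteins were followed across mouse testis, epididymis and stromal vascular fraction (SVF), the non-adipocyte cells of fat. The group held 58 of the 18545 named genes on the array, and 66 of its 25344 probes. Members were all genes whose symbol in the array's annotation began with Dnah, Dnahc, Dnaic, Dnai, Dnal, Dync, Dynl, Tekt, Ift or Rsph. The rule reads names and no measured value, but the group was chosen with earlier results of these data known. Total RNA of each tissue pair was hybridised on 2 two-colour arrays with the dyes exchanged, which gave 6 arrays in 3 dye swaps, and each tissue was 1 RNA sample carried by 4 arrays. The sources used here do not give the strain, age or number of animals.

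A motile cilium or sperm flagellum is built around an axoneme, a ring of microtubule doublets with a central pair. Dynein arms, each a heavy chain motor with intermediate and light chains, slide neighbouring doublets, radial spokes pass signals from the central pair to the arms, and tektins are filaments inside the doublets. IFT trains, carried outward by kinesin and back by dynein 2, bring the parts to the tip, while cytoplasmic dynein 1 hauls cargo along microtubules in almost every cell. In the testis the flagellum is assembled in spermatids, in the epididymis finished spermatozoa are stored while some cells of the duct lining carry primary cilia, and the SVF holds progenitor, vessel and immune cells that can carry at most a non-motile primary cilium.

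Transcription factors of the RFX family are known regulators of cilium genes, and the CRE is the site of CREM, a regulator of spermatid genes. Promoters were therefore read from RefSeq (GRCm38.p6), from 250 bases before to 50 bases after each annotated start, for the 47 members that had an entry. Searched on both strands, GTTGCC, taken as an RFX site, was in 34% of these 47 members (16 genes) and in 14.1% of all genes with a promoter. It was in 9 of 23 members that were higher in testis than in SVF by the rule given below, and in 7 of 24 other members. TGACGT, taken as a CRE site, was in 5 of those 23 members, in 1 of the 24 others, and in 8.37% of all genes. TGTTTAC, taken as the core site of the ciliary factor FOXJ1, was in 2 of the 47 members and in 4.05% of all genes. A CRE site can read on both strands, as in Ift57, and each gene was counted once. A match is a description of letters, and it does not show that a factor binds. The windows below show the RFX site, in capitals, upstream of 5 members with high testis ratios and then of 2 members that met the rule in no comparison, since the letters occurred in both. GGCAAC is the same site read on the other strand. Capitals mark 1 match in each window, and the lower-case letters ggcaac that open the Tekt1 window are a further match.
Tekt1 (tektin, chr11:72361883-72361917, minus strand): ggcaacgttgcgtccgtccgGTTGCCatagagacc
Tekt2 (tektin, chr4:126325685-126325730, minus strand): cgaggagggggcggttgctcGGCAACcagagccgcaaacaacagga
Dynlrb2 (dynein light chain, chr8:116504944-116504989, plus strand): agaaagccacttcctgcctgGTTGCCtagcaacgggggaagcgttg
Ift57 (IFT-B, chr16:49699214-49699259, plus strand): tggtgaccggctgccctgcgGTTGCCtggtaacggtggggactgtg
Ift140 (IFT-A, chr17:25015957-25016002, plus strand): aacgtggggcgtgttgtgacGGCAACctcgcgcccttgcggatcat
Dnaic2 (outer arm intermediate chain, chr11:114727373-114727418, plus strand): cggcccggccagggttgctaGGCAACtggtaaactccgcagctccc
Dync1i1 (cytoplasmic dynein 1, chr6:5725525-5725570, plus strand): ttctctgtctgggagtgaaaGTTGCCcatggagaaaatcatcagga
The 2 last windows belong to genes whose testis over SVF ratios were small, as given below, so the site was not confined to members with high testis ratios.

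Values are log ratios, read as log2, of the first-named tissue over the second. Array 1 of each pair carried the first-named tissue in Cy5, and array 2 carried it in Cy3 and had its sign turned. A gene was called higher in a tissue when its ratio was at least 1, or 2-fold, in that direction on both arrays. Errors are the SD over the 2 hybridisations of the same RNAs (n = 2), so they hold no difference between animals, and no test between tissues can be made. The direction rests on the titles and is likely rather than stated. In whole-tissue RNA, fewer cells of a type and less RNA per cell cannot be told apart.

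Marker lists describe the tissues but do not test them, since the lists were chosen with earlier results of these data known. All 11 measured epididymal epithelial markers were higher in epididymis than in either other tissue, and all 9 measured stromal and leukocyte markers favoured SVF over testis. Of 16 late spermatid markers, 14 were higher in testis than in SVF. Across all probes as deposited, the exchanged arrays of a pair had Pearson's r of -0.86, -0.64 and -0.77 in the order testis and SVF, epididymis and SVF, epididymis and testis. Members differed more between exchanged arrays than named genes did at the median. Their median SDs were 0.48, 0.38 and 0.49 in that order, beside 0.33, 0.37 and 0.35 for all named genes, and 10, 8 and 9 members had an SD over 1. With signs turned, r across members was 0.79, 0.34 and 0.74, beside 0.88, 0.71 and 0.81 across all named genes. The shares of members with the same sign on both arrays were 86.2%, 62.1% and 79.3%, beside 78.3%, 68.1% and 76.1%. Member ratios thus repeated least well between epididymis and SVF.

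Members leaned to testis as a group. Against SVF, 28 of 58 members were higher in testis (48.3%), beside 20.7% of all named genes, and 2 were higher in SVF (3.45%), beside 16%. The members' median log2 ratio of testis over SVF was 1.40, and that of all named genes was 0.0038. Between epididymis and testis, 26 members were higher in testis (44.8%), beside 18%, and 3 were higher in epididymis (5.17%), beside 14.3%, with a median of -1.09 beside -0.0035. Between epididymis and SVF the lean was slight. There 8 members were higher in epididymis (13.8%), beside 10.2%, and 1 was higher in SVF (1.72%), beside 8.68%, with a median of 0.35 beside 0.071. The low counts depended on single arrays. With the rule on array 1 alone, 17 members were higher in epididymis than in SVF (29.3%), beside 17.3% of all named genes, and 8 were higher in epididymis than in testis (13.8%), beside 20.3%. On array 2 alone, 7 favoured SVF over testis (12.1%), beside 21.7%. On array 1 alone, 3 were higher in SVF than in epididymis (5.17%), beside 14.4%. The all-gene shares thus also rose under the looser rule. Each comparison shares its RNA with the other 2, so the 3 sets of counts are not independent.

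**Figure D1:**
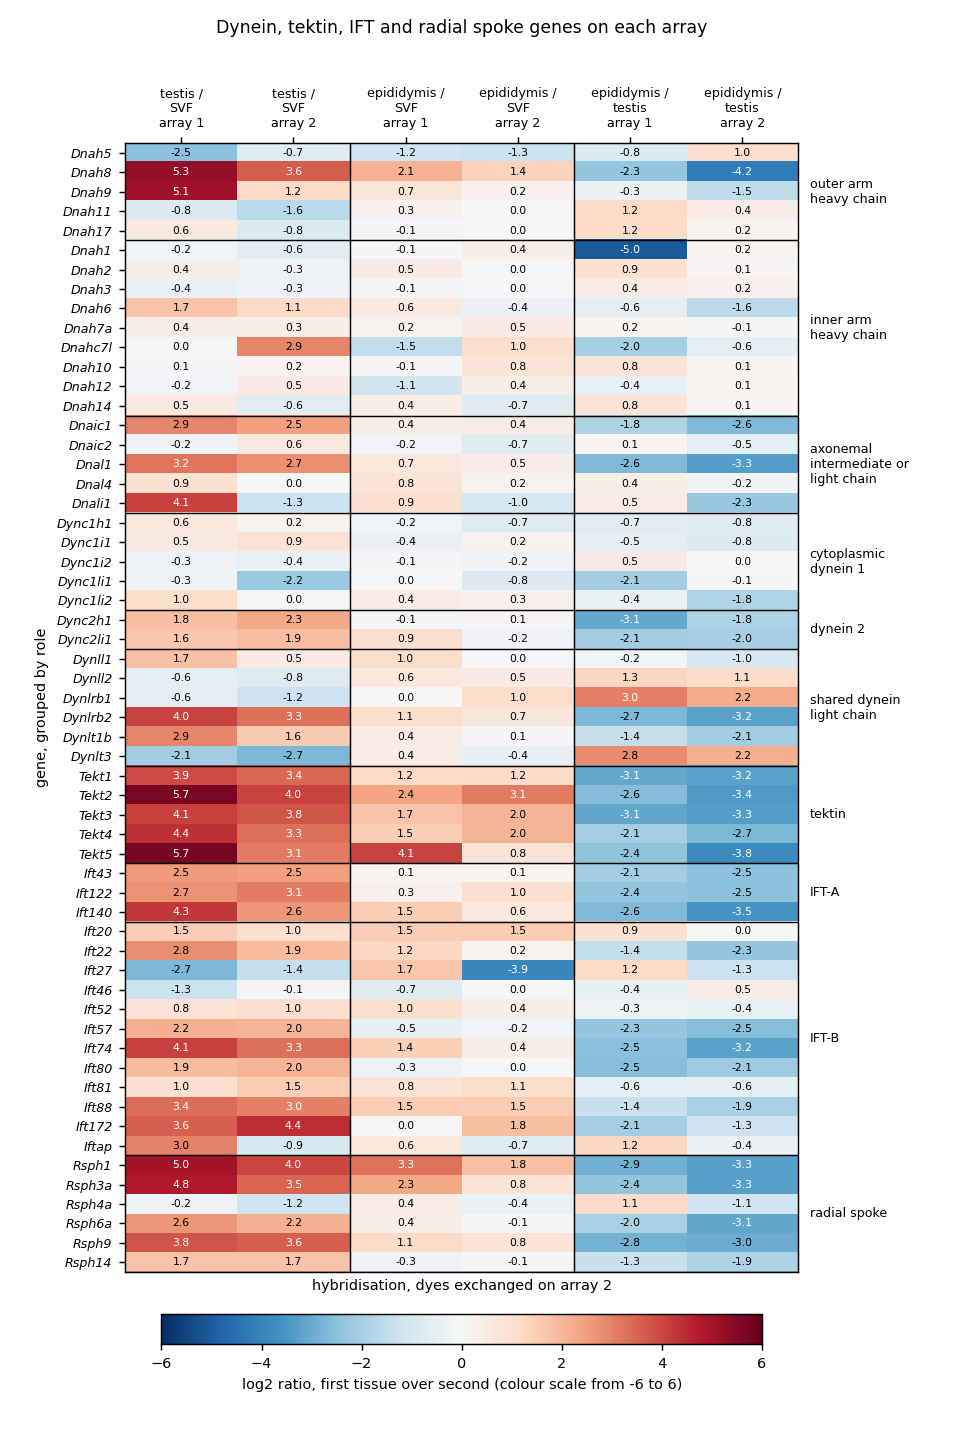
Log2 ratio of every member on each of the 6 arrays, as rows grouped by role and columns grouped by dye swap, with red for higher in the first-named tissue and blue for higher in the second. The 5 tektins and the 3 Ift genes of IFT-A are red on both testis over SVF arrays and blue on both epididymis over testis arrays, while most heavy chain rows are pale.

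**Figure D2:**
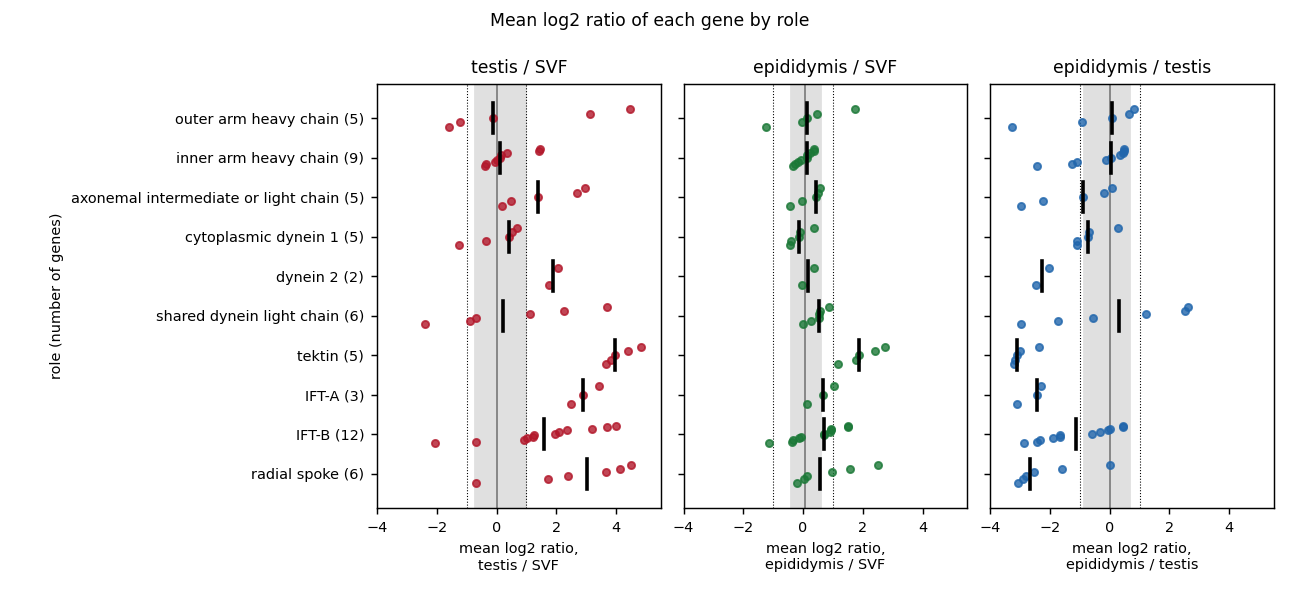
Mean log2 ratio of each member (points) by role in the 3 comparisons, with role medians as black bars, the middle 50% of all named genes as a grey band, their median as a grey line, and 2-fold as dotted lines. Tektins have the highest role median in testis over SVF (3.95), and the heavy chains of both arms have medians inside the grey band.

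All 5 tektins were higher in testis than in either other tissue. Tekt1, a filament protein of doublet microtubules, stood at 3.92 and 3.43 on the testis over SVF arrays (mean 3.67 ± 0.34, 12.8-fold). On the epididymis over testis arrays it stood at -3.07 and -3.23 (mean -3.15 ± 0.12). Tekt3 stood at 4.11 and 3.78 (3.95 ± 0.23, 15.4-fold) in testis over SVF and at -3.10 and -3.31 (-3.20 ± 0.15) in epididymis over testis. These values repeated closely between exchanged arrays. Tekt2, required for normal sperm tails, reached 5.66 and 4.03 in testis over SVF, a mean of 4.85 ± 1.15 and the largest of all 58 members, or 28.8-fold. Tekt4 stood at 4.38 and 3.31 (3.84 ± 0.76), and Tekt5, a tektin known from sperm, at 5.70 and 3.10 (4.40 ± 1.84). For all 5 tektins the array with testis in Cy5 gave the larger testis excess, both against SVF and against epididymis. This was not particular to tektins. The medians of all 58 members had the same order, at 1.71 and 1.15 in testis over SVF and -1.07 and -1.39 in epididymis over testis. Its cause was not tested.

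Tektins also made up 4 of the 8 members that were higher in epididymis than in SVF. Tekt2 stood at 2.37 and 3.14 (2.76 ± 0.54, 6.75-fold), the highest mean of any member in that comparison. Tekt3 stood at 1.70 and 2.04 (1.87 ± 0.24) and Tekt4 at 1.50 and 2.03 (1.76 ± 0.37). Tekt1 stood at 1.18 and 1.16 (1.17 ± 0.01), just inside the rule. Tekt5 was just outside it, since it read 4.06 on array 1 and 0.78 on array 2, and its mean of 2.42 had an SD of 2.32. The remaining 4 of the 8 were Dnah8, Ift20, Ift88 and Rsph1. Germ cell markers were also higher in epididymis than in SVF, with 10 of 16 late spermatid markers (median 1.79) and 6 of 10 spermatocyte markers (median 1.80) meeting the rule. Their part in the tektin values was not tested.

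Radial spoke genes followed the tektins, with 1 exception. Of 6, 5 read higher in testis than in SVF (83.3%, beside 20.7% of all named genes), with a median of 3.03. Against epididymis, 5 were higher in testis (83.3%, beside 18%), with an epididymis over testis median of -2.67. Rsph1, a spoke head protein, stood at 4.98 and 4.02 in testis over SVF (4.50 ± 0.68, 22.6-fold), at 3.26 and 1.76 in epididymis over SVF (2.51 ± 1.06, 5.71-fold), and at -2.89 and -3.28 in epididymis over testis (-3.08 ± 0.28). It was the 1 spoke gene that met the rule in epididymis over SVF. Rsph9, also of the head, stood at 3.78 and 3.57 (3.67 ± 0.15, 12.8-fold) in testis over SVF and at -2.82 and -2.99 (-2.91 ± 0.12) in epididymis over testis. Its epididymis over SVF values of 1.14 and 0.82 fell just short of the rule, as did the 2.33 and 0.84 of the stalk gene Rsph3a.

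The heads also held the exception, in a pair of paralogs. Rsph6a, the head protein known from sperm, stood at 2.64 and 2.15 in testis over SVF (2.39 ± 0.34, 5.26-fold) and at -1.96 and -3.09 in epididymis over testis (-2.53 ± 0.81). Rsph4a, its counterpart known from motile cilia of epithelia, stood at -0.19 and -1.20 in testis over SVF (-0.70 ± 0.71) and at 1.13 and -1.13 in epididymis over testis, where the arrays disagreed in sign. Rsph6a was positive and Rsph4a negative on both testis over SVF arrays. Rsph3a stood at 4.78 and 3.51 in testis over SVF (4.15 ± 0.90, 17.7-fold) and at -2.35 and -3.28 in epididymis over testis (-2.81 ± 0.65). The mouse has a near-identical Rsph3b, and the probe's letters were not analysed here, so this value may belong to either copy. Rsph14 had the smallest ratio of the 5, at 1.72 and 1.70 (1.71 ± 0.02, 3.27-fold) in testis over SVF and at -1.33 and -1.85 (-1.59 ± 0.37) in epididymis over testis.

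IFT-A is the complex of returning trains, and its 3 members with an Ift symbol, Ift140, Ift122 and Ift43, were higher in testis than in either other tissue. Ift140 stood at 4.26 and 2.61 in testis over SVF (3.43 ± 1.17, 10.8-fold) and at -2.65 and -3.54 in epididymis over testis (-3.10 ± 0.64). Ift122 stood at 2.67 and 3.09 (2.88 ± 0.29, 7.37-fold) and at -2.37 and -2.47 (-2.42 ± 0.07) in the same order. Ift43 stood at 2.55 and 2.45 (2.50 ± 0.07, 5.66-fold) and at -2.11 and -2.47 (-2.29 ± 0.26). None of the 3 met the rule between epididymis and SVF, where Ift43 read 0.14 and 0.13. The other 3 measured subunits of IFT-A, which carry other symbols and so are no members, were less uniform. Wdr35 was higher in testis than in SVF (2.89 ± 0.00) and than in epididymis (-2.51 ± 0.13). Wdr19 met the rule in testis over SVF (1.63 ± 0.07) but not in epididymis over testis, at -0.98 and -1.52. Ttc21b met it in neither, at 1.24 and 0.98, and at -0.61 and -1.17.

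The 12 members placed with IFT-B, the complex of outward trains, were not uniform. Of these, 6 met the rule for testis over SVF (50%, beside 20.7% of all named genes) and 1 was higher in SVF (8.33%, beside 16%). In epididymis over testis, 6 were higher in testis (50%, beside 18%). The medians were 1.60 and -1.13. Subunits of IFT-B under other symbols, Cluap1, Hspb11, Ttc26 and Ttc30a1, each met the rule for testis over SVF. Their means were 1.83 ± 0.75, 1.63 ± 0.30, 2.59 ± 0.21 and 3.27 ± 0.80. All but Hspb11, at -0.88 and -1.28, were also higher in testis than in epididymis. Ift172, the largest IFT-B protein, stood at 3.57 and 4.45 in testis over SVF (4.01 ± 0.62, 16.1-fold) and at -2.06 and -1.26 in epididymis over testis (-1.66 ± 0.56). Ift74, a partner of Ift81 in the core that binds tubulin, stood at 4.10 and 3.33 (3.71 ± 0.55, 13.1-fold) and at -2.52 and -3.21 (-2.86 ± 0.49). Ift81 itself had smaller ratios, at 0.96 and 1.51 in testis over SVF (1.24 ± 0.39) and -0.60 and -0.61 in epididymis over testis (-0.60 ± 0.01). Both Ift74 values exceeded both Ift81 values in testis over SVF, although the proteins work as a pair. Levels of the 2 transcripts cannot be compared from ratios.

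Ift88, the IFT-B protein disrupted in a classic mouse model of primary cilium loss, met the rule in all 3 comparisons. It stood at 3.37 and 3.02 in testis over SVF (3.19 ± 0.25, 9.14-fold), at 1.51 and 1.52 in epididymis over SVF (1.52 ± 0.01, 2.86-fold) and at -1.36 and -1.95 in epididymis over testis (-1.65 ± 0.42). Ift20, which also works at the Golgi, had another pattern. It stood at 1.49 and 1.51 in epididymis over SVF (1.50 ± 0.01, 2.83-fold), at 1.48 and 0.996 in testis over SVF (1.24 ± 0.34), and at 0.93 and -0.02 in epididymis over testis (0.45 ± 0.67). Both tissues thus read above SVF for Ift20, and the second testis array missed the threshold by a narrow margin.

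Among the other IFT-B genes, Ift57 stood at 2.17 and 2.03 in testis over SVF (2.10 ± 0.10, 4.28-fold), and at -2.32 and -2.54 in epididymis over testis (-2.43 ± 0.15). Ift80, which joins the same peripheral part of the complex, stood at 1.90 and 2.03 (1.97 ± 0.09, 3.91-fold) and at -2.55 and -2.13 (-2.34 ± 0.29). Both were below 0 or near it in epididymis over SVF, with means of -0.34 ± 0.24 and -0.14 ± 0.22. The small GTPase Ift22 stood at 2.81 and 1.92 in testis over SVF (2.36 ± 0.63) and at -1.43 and -2.34 in epididymis over testis (-1.89 ± 0.64). The core subunit Ift52 reached 0.82 and 1.00 in testis over SVF (0.91 ± 0.13) and fell short of the rule, and Ift46 read -1.27 and -0.10 (-0.69 ± 0.82).

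Ift27 and Iftap gave values that exchanged arrays did not share. Ift27, a second small GTPase of the core, was the 1 IFT gene higher in SVF than in testis, at -2.70 and -1.40 (-2.05 ± 0.92, 4.14-fold). Yet it stood at 1.67 and -3.94 in epididymis over SVF (-1.13 ± 3.96), the largest SD of any member in that comparison, and at 1.19 and -1.27 in epididymis over testis. Iftap, an IFT-associated protein counted here with IFT-B, stood at 2.97 and -0.94 in testis over SVF (1.01 ± 2.77). No direction can be read for either gene where the arrays opposed each other.

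Dynein 2, the motor that returns IFT trains, had 2 members, Dync2li1 and Dync2h1, both higher in testis than in SVF or epididymis. Its light intermediate chain Dync2li1 stood at 1.63 and 1.87 in testis over SVF (1.75 ± 0.17, 3.37-fold) and at -2.09 and -2.01 in epididymis over testis (-2.05 ± 0.06). The heavy chain Dync2h1, averaged over 4 probes, stood at 1.82 and 2.29 (2.05 ± 0.33, 4.15-fold) and at -3.07 and -1.83 (-2.45 ± 0.88). Those means covered unlike probes. Of the 4, 2 read 4.45 and 4.91, and 3.42 and 2.86, in testis over SVF, while the other 2 read -0.29 and 0.15, and -0.31 and 1.24. Only the probe at -0.29 and 0.15 came from the closely numbered records described below. Chains of dynein 2 under other symbols divided. Tctex1d2, a light chain, was higher in testis than in SVF (3.57 ± 0.60) and than in epididymis (-2.61 ± 0.54). The intermediate chain Wdr34 was higher than SVF in testis (1.19 ± 0.22) and in epididymis (1.55 ± 0.26), but stood at 0.31 and 0.12 in epididymis over testis. The other intermediate chain, Wdr60, met the rule in no comparison and read 0.27 and 1.11 in testis over SVF.

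Averaged over its probes, no gene of cytoplasmic dynein 1, the general transport motor, met the rule in any comparison. Of the 18545 named genes, 11745 also missed it in testis over SVF, 15046 in epididymis over SVF and 12550 in epididymis over testis. Missing the rule was thus the common outcome and does not set these 5 genes apart. Its heavy chain Dync1h1 stood at 0.62 and 0.19 in testis over SVF (0.40 ± 0.31), at -0.17 and -0.71 in epididymis over SVF (-0.44 ± 0.38) and at -0.66 and -0.77 in epididymis over testis (-0.71 ± 0.07). The intermediate chain Dync1i1 had the highest mean of the 5 in testis over SVF, at 0.52 and 0.87 (0.70 ± 0.25), and its paralog Dync1i2 read -0.29 and -0.41 (-0.35 ± 0.09). The light intermediate chain Dync1li1 had the lowest, at -0.25 and -2.23 (-1.24 ± 1.40). That average covered unlike probes, of which 1 read -1.05 and -1.24, past the rule for SVF, and the other read 0.55 and -3.22. Dync1li2 stood at 1.05 and -0.04 (0.50 ± 0.77). Both light intermediate chains passed 2-fold on only 1 array of a pair, with -2.10 and -0.09 for Dync1li1 and -0.39 and -1.79 for Dync1li2 in epididymis over testis.

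The light chains that several dyneins share divided by paralog. Dynlrb2, a roadblock light chain, stood at 4.04 and 3.33 in testis over SVF (3.68 ± 0.51, 12.9-fold) and at -2.71 and -3.19 in epididymis over testis (-2.95 ± 0.34, 7.73-fold). Its paralog Dynlrb1 stood at -0.55 and -1.24 in testis over SVF (-0.89 ± 0.48) and at 3.01 and 2.21 in epididymis over testis (2.61 ± 0.57, 6.09-fold). The 2 roadblock genes thus met the rule in opposite directions between epididymis and testis, and their values did not overlap on any array pair that carried testis.

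The same division held for the Tctex light chains. Dynlt1b stood at 2.92 and 1.58 in testis over SVF (2.25 ± 0.94, 4.77-fold) and at -1.38 and -2.07 in epididymis over testis (-1.73 ± 0.49, 3.31-fold). Dynlt3 stood at -2.11 and -2.70 in testis over SVF (-2.41 ± 0.42, 5.3-fold higher in SVF) and at 2.83 and 2.19 in epididymis over testis (2.51 ± 0.45, 5.71-fold). Dynlt1b has near-identical copies in the mouse genome, so its value cannot be assigned to 1 of them. In epididymis over SVF neither roadblock nor Tctex genes met the rule, and Dynlt3 read 0.43 and -0.44. Of the LC8 light chains, Dynll2 stood at 1.30 and 1.10 in epididymis over testis (1.20 ± 0.14, 2.3-fold), just inside the rule, and at -0.60 and -0.78 in testis over SVF (-0.69 ± 0.13). Its paralog Dynll1 read 1.74 and 0.47 in testis over SVF (1.11 ± 0.90) and -0.16 and -0.96 in epididymis over testis. The 3 members higher in epididymis than in testis, Dynlrb1, Dynlt3 and Dynll2, were therefore all shared light chains.

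Of 5 axonemal intermediate and light chains, 2 were higher in testis than in SVF (40%, beside 20.7% of all named genes). The same 2 were higher in testis than in epididymis (40%, beside 18%). The outer arm intermediate chain Dnaic1 stood at 2.93 and 2.48 in testis over SVF (2.71 ± 0.32, 6.53-fold) and at -1.84 and -2.63 in epididymis over testis (-2.24 ± 0.56). The outer arm light chain Dnal1 stood at 3.20 and 2.74 (2.97 ± 0.33, 7.85-fold) and at -2.63 and -3.30 (-2.97 ± 0.48). The second outer arm intermediate chain, Dnaic2, did not follow its partner, at -0.21 and 0.57 in testis over SVF (0.18 ± 0.55). The light chain Dnal4 stood at 0.93 and 0.02 (0.48 ± 0.64). Dnali1, a light chain of inner arms, had the largest spread of any member in testis over SVF, at 4.09 and -1.29 (1.40 ± 3.81), and so gave no direction.

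Axonemal heavy chains, the motors themselves, met the rule for testis over SVF about as often as all named genes. Their medians were also near those of all genes. Of 14, 3 were higher in testis than in SVF (21.4%, beside 20.7% of all named genes), with a median of 0.076. In epididymis over testis, 1 was higher in testis (7.14%, beside 18%), with a median of 0.062. Dnah8, an outer arm chain known for its high expression in testis, stood at 5.27 and 3.64 in testis over SVF (4.45 ± 1.15, 21.9-fold). It stood at 2.09 and 1.37 in epididymis over SVF (1.73 ± 0.51, 3.32-fold) and at -2.32 and -4.20 in epididymis over testis (-3.26 ± 1.32, 9.58-fold). Its close paralog Dnah5, the outer arm chain of airway cilia, read -2.45 and -0.74 in testis over SVF (-1.60 ± 1.21) and was the 1 member higher in SVF than in epididymis, at -1.21 and -1.28 (-1.24 ± 0.04, 2.37-fold). Dnah8 was above Dnah5 on both arrays of testis over SVF and of epididymis over SVF.

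Among other outer arm chains, Dnah9 met the rule in testis over SVF at 5.09 and 1.17, but its spread was wide (3.13 ± 2.77). Dnah11 read -0.81 and -1.63 (-1.22 ± 0.58) and Dnah17 read 0.58 and -0.80 (-0.11 ± 0.97). Of 9 genes placed with inner arm heavy chains, Dnah6 alone met the rule in testis over SVF, at 1.69 and 1.13 (1.41 ± 0.40, 2.65-fold). Means of the other inner arm genes ran from -0.39 for Dnah1 to 1.46 for Dnahc7l, which read 0.00 and 2.92. Dnahc7l and Dnah7a belong to a set of closely related copies and cannot be told from them here. Dnah10, Dnah3 and Dnah7a had small ratios on each array, with testis over SVF means of 0.12 ± 0.07, -0.34 ± 0.06 and 0.34 ± 0.02. The remaining inner arm genes Dnah2, Dnah12 and Dnah14 changed sign between the 2 arrays, with means of 0.03 ± 0.48, 0.16 ± 0.46 and -0.05 ± 0.84. Dnah1, Dnah3, Dnah7a, Dnah10 and Dnah12 each rested on a single probe, from the closely numbered records described below.

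Heavy chain probes were also grouped by the sequence record they were designed on. A series of 9 probes for 9 genes, cytoplasmic chains included, named closely numbered GenBank records as their source, and none of the 9 met the rule in any comparison (testis over SVF median -0.22). Of the 14 other heavy chain probes, for 11 genes, 5 met the rule for testis over SVF (median 0.43) and 9 did not. In epididymis over testis, 4 of the 14 were higher in testis. Among all named probes, 19.8% met the rule for testis over SVF and 17.3% were higher in testis than in epididymis. With only 9 probes in the series, whether the kinds of record differ cannot be told from these counts. Of 4 genes with probes of both kinds, Dnah6 alone divided by record. For Dync2h1 the numbered probe missed the rule, but so did another probe outside those records, at -0.31 and 1.24 in testis over SVF. Dnah2 and Dnah17 had no probe of either kind that met the rule. One Dnah6 probe read 4.04 and 3.26 in testis over SVF, and the other, from the numbered records, read -0.66 and -1.01. Without that probe Dnah6 had a mean of 3.65 ± 0.55 in testis over SVF, and it met the rule in epididymis over testis, at -3.28 ± 0.58. Dync2h1 without its probe from those records had a mean of 2.76 ± 0.34 in testis over SVF. Probe letters were not analysed here, so whether these probes detect the named transcripts was not tested. The grouping of probes by record was chosen after the values were seen. Counted without those records, the epididymis over testis median of the members with probes left was -1.59.

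On the first epididymis over testis array, 3 probes stood far from their exchanged values. The only probe of Dnah1 read -5.03 and then 0.16, and the numbered Dync2h1 probe read -6.37 and then 0.52. One of 2 Dync1li1 probes read -5.00 and then -0.50. None of these low readings recurred on the exchanged array.

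**Figure D3:**
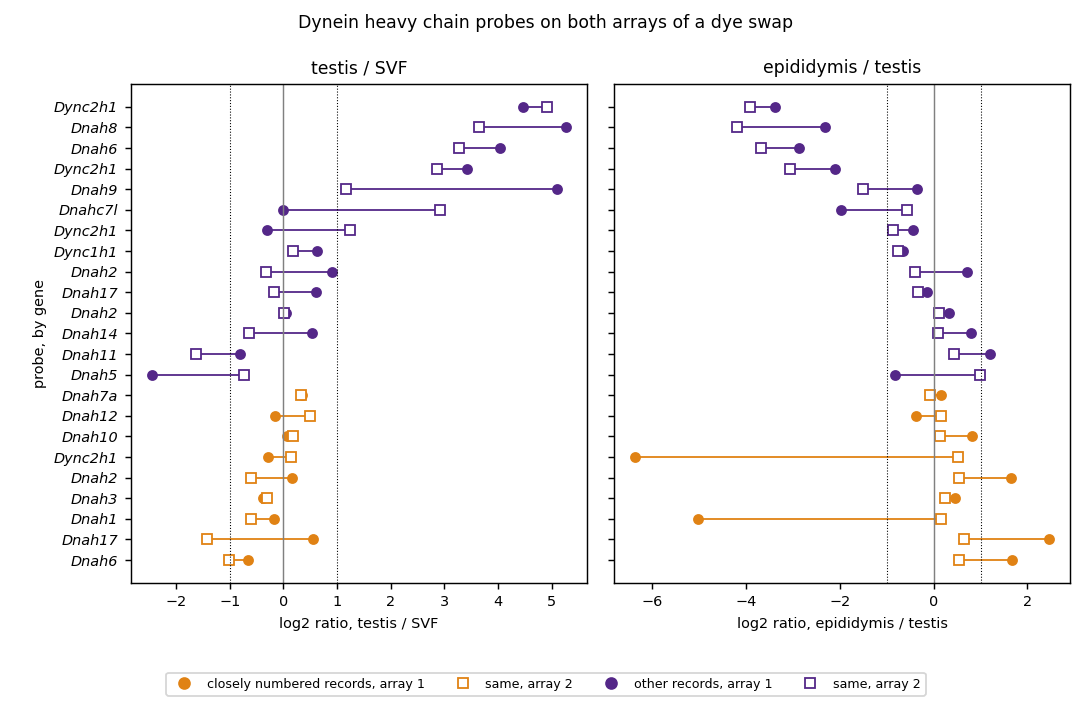
Log2 ratios of the 23 dynein heavy chain probes on array 1 (filled circles) and array 2 (open squares) for testis over SVF and epididymis over testis, with probes of the closely numbered records in orange, other probes in purple and 2-fold as dotted lines. In testis over SVF the 9 orange probes have means from -0.83 to 0.34, whereas purple probes have means from -1.60 to 4.68.

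Closing the loop gave a check on each gene, since testis over SVF should equal testis over epididymis plus epididymis over SVF. The sum missed by no more than 1 on the log2 scale for 49 of 58 members (84.5%), beside 92.4% of all named genes. The misses over 1 were those of Dnah1 (-2.94), Dnah9 (1.72), Dync1li1 (-1.94), Dynlrb1 (1.17), Ift172 (1.44), Iftap (1.51), Rsph1 (-1.10), Tekt3 (-1.12) and Tekt5 (-1.13). Of these, Rsph1 and Tekt3 had met the rule in all 3 comparisons, so the sizes of their ratios differed between direct and indirect readings.

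Genes that build or move the same structures, listed by function and read by the same rule, mostly read the same way. Of 47 other axonemal genes, 38 exceeded SVF in testis (80.9%, beside 20.7% of all named genes) and none did the reverse (beside 16%), with a median of 3.24. The highest were Ropn1l, a spoke-associated protein, at 5.27 ± 1.12, and Spag16 of the central pair, at 4.98 ± 0.31. In epididymis over testis, 37 of the 47 were higher in testis (78.7%, beside 18%) and none in epididymis (beside 14.3%). Spag17 of the central pair stood at -4.09 ± 0.82. Of 14 factors that fold and assemble dynein arms in the cytoplasm, 12 met the rule for testis against SVF (85.7%, beside 20.7%). Against epididymis 12 also met it for testis (85.7%, beside 18%), and the medians were 2.62 and -2.41. Pih1d2, of the HSP90 co-chaperone family, stood at 4.57 ± 0.68 and Dnaaf4 at 3.96 ± 0.26 in testis over SVF. The assembly factors had a higher median than the heavy chains they act on, and the difference was not tested. Some of those heavy chains had only probes of the numbered records, none of which met the rule.

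Partners of IFT read nearer to the IFT genes, but their list of 27 held more than motor, adaptor and BBSome genes. The BBSome is a cargo coat carried on IFT trains. Subunits of IFT and dynein 2 under other symbols were in it too, such as Wdr35, Cluap1 and Tctex1d2. The likeness is therefore partly that of IFT genes to each other. Of the 27, 18 were higher in testis than in SVF (66.7%, beside 20.7% of all named genes), with a median of 1.63. Against epididymis, 11 were higher in testis (40.7%, beside 18%), with an epididymis over testis median of -1.20. None met the rule the other way. Bbs5 of the BBSome stood at 4.35 ± 0.84 in testis over SVF. Dynactin and cargo adaptors of cytoplasmic dynein met the rule in both directions. Of 24, 8 met it for testis over SVF (33.3%, beside 20.7% of all named genes) and 2 for SVF (8.33%, beside 16%). Between epididymis and testis, 7 were higher in testis (29.2%, beside 18%) and 3 in epididymis (12.5%, beside 14.3%). The medians were 0.43 and -0.14. The 8 included Capza3 (5.37 ± 0.55), a capping protein of sperm, and Hook1 (5.09 ± 0.56), a linker needed for sperm head shape. Those against the majority were Pafah1b1 (-1.48 ± 0.28), a regulator of dynein 1, and Rilp (-1.35 ± 0.08), an adaptor on late endosomes.

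Of 8 cilium gene regulators, 5 met the rule for testis over SVF (62.5%, beside 20.7% of all named genes). Against epididymis, 5 were higher in testis (62.5%, beside 18%). Rfx3 stood at 4.11 ± 0.11 and Rfx2 at 2.03 ± 0.04 in testis over SVF, and Foxj1 stood at 2.28 ± 0.45. Crem went the other way, at -2.46 ± 0.36 in testis over SVF and -3.51 ± 0.74 in epididymis over SVF, so it was higher in SVF than in either. Only some markers of multiciliated cells were measured. Of 4, Deup1 (3.47 ± 1.16) and Foxj1, also counted as a regulator, exceeded SVF in testis. Sntn leaned the other way without meeting the rule, at -1.76 and -0.69 in testis over SVF and 0.41 and 2.40 in epididymis over testis. Ccno read -0.15 and 1.85 in testis over SVF, where its arrays disagreed in sign. None of the 4 met the rule in epididymis over SVF, where Deup1 read 1.01 and 0.89.

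**Figure D4:**
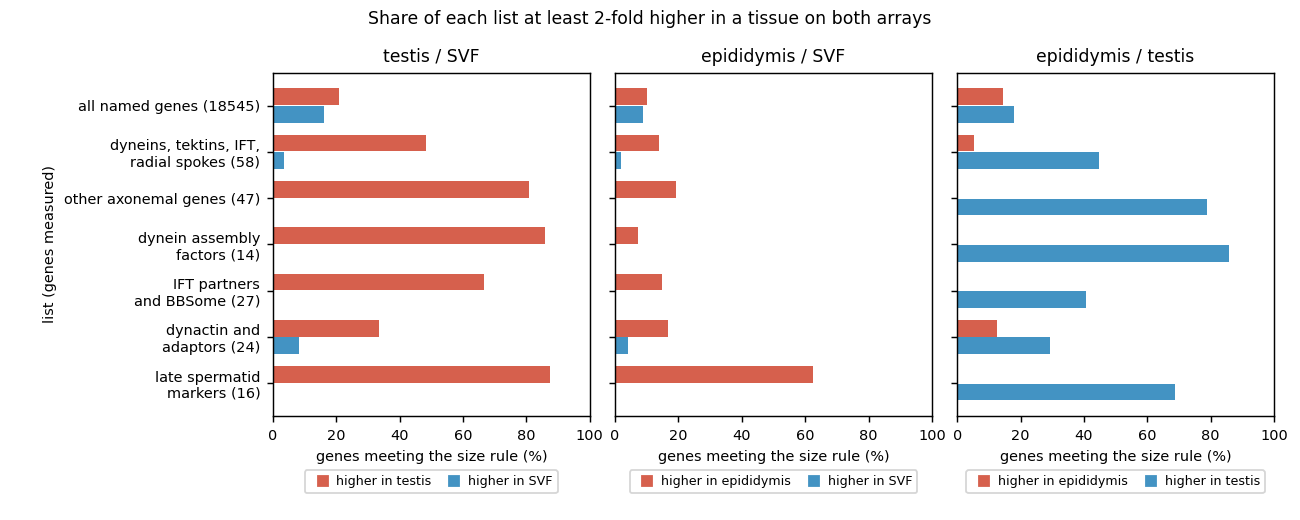
Share of each list that was at least 2-fold higher in a tissue on both arrays, in percent, in the 3 comparisons, with red bars for the first-named tissue and blue bars for the second. Of the members, 48.3% were higher in testis than in SVF, beside 20.7% of all named genes, and the lists of other axonemal genes and dynein assembly factors have no bar for SVF.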

How the data were processed

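The authors deposited a table of 25344 probes with 1 log ratio on each of 6 arrays and no missing values. Per the labels, Qiagen supplied the extraction and Ambion the labelling, with Cy3 and Cy5 as dyes. How the authors corrected background, normalized, chose the logarithm's base and set the direction is not given in the sources used here. Deposited values were taken as log2 ratios of Cy5 over Cy3, with Cy5 the tissue named first in each title, so printed folds rest on that base. Spot intensities were not analysed here, so genes near background cannot be told apart. Precision is limited by the number of arrays.

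Probes were named through the array's annotation, updated by gene ID to the RefSeq gene table (GRCm38.p6). Of 58 members, 57 matched by gene ID and 1 kept its annotated name. Probes of 1 gene were averaged, and 5 members had 2 or more. A gene was called higher at 2-fold on both arrays of a dye swap. With 1 RNA sample per tissue no test was run. Counts of genes high in the same tissue in 2 comparisons were planned and are not given, because the comparisons share RNA.

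Members and lists were chosen with earlier results of these data known. Any member could be named, with values per array for members meeting the rule in at least 2 comparisons and for role extremes. From other lists, at most 4 of the genes with the largest ratios, and at most 2 against the majority, were to be named. Rfx2, Wdr19, Ttc21b, Wdr60, Cluap1, Hspb11 and the heavy chain probes were picked after their values were seen. Calculations used Python 3.11.15, pandas 2.3.3, numpy 2.4.6 and matplotlib 3.10.9. The rule's code was tested on simulated data. The alternatives were median centring, a least-squares loop estimate, 2-fold on the mean, 4-fold, single probes, genes with values on all 6 arrays and each array left out. A natural logarithm reading, members with an SD of at most 1, and members without the numbered heavy chain records were chosen after seeing the data. Other spellings of the promoter motifs were searched and are not given.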

Additional observations from a re-analysis of the deposited data

How the results depend on the processing

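Counts of members higher in testis, 28 against SVF and 26 against epididymis, stayed within 1.5 times under every alternative run, from 20 to 34 and from 18 to 32. The small counts moved more. Higher in SVF than in testis (2) became 5 on the mean alone, 1 at 4-fold, 5 by the loop estimate, 1 among members with an SD of at most 1, 4 as natural logarithms, and 4 to 7 on single arrays. Higher in SVF than in epididymis (1) became 2 on the mean alone, 0 at 4-fold, 3 by the loop estimate, 0 among members with low SD, and 2 to 3 on single arrays. Higher in epididymis than in SVF (8) became 1 at 4-fold, 5 among members with low SD, and 12 to 17 on single arrays. Higher in epididymis than in testis (3) became 3 to 8 on single arrays. The epididymis over testis median ran from -1.39 to -1.07 on single arrays and was -1.59 without the numbered heavy chain records. The cause was not tested, beyond fewer members or arrays entering. The restriction to low SD, the natural logarithm and the left-out records were chosen after seeing the data. Requiring values on all 6 arrays removed no member. No paired analysis was possible because each tissue is 1 RNA sample and the result comes from no test. Unknown background, near-identical gene copies and the 2 arrays per pair limit every ratio.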
